A study of Mus musculus with 19 samples.

Results

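The long noncoding RNAs *Pvt1*, *Trp53cor1*, *Neat1*, *Meg3*, *Malat1* and *Gas5*, tied to p53 or to the nuclear stress response, and *Myc*, the gene next to *Pvt1*, were followed across the genotypes of an *Ino80* deletion series. These 7 genes, of 51912 in the count files, were named by their known roles, and *Pvt1* and *Trp53cor1* also because earlier results of these counts had shown them to change in the *Ino80* mutant. RNA came from cerebral cortex of E13.5 mouse embryos of mixed C57BL/6 and 129 background, 1 library per embryo. The 7 ctrl embryos are labelled as controls with no genotype stated. The 5 cKO-E embryos carried *Emx1*-Cre/+; *Ino80* fl/fl, which removes *Ino80*, the ATPase of a nucleosome remodelling complex, from cortical progenitors and their descendants. The 7 dKO-E embryos had *Trp53* fl/fl in addition to *Emx1*-Cre/+ and *Ino80* fl/fl and so lost p53 in the same lineage. Interneurons, microglia and vessels arise outside the *Emx1* lineage and keep both genes. In bulk tissue, fewer cells of a type cannot be told from less RNA per cell.

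p53 is a transcription factor that damaged DNA stabilises, and it activates noncoding genes as well as the mRNAs of cell-cycle arrest and death. *Trp53cor1*, transcribed away from *Cdkn1a*, and *Pvt1* both contain p53 response elements and are direct p53 targets. *Neat1* is the architectural RNA of paraspeckles, nuclear bodies that form under stress, and is also induced by p53. *Malat1* is a nuclear speckle RNA, *Meg3* is an imprinted, maternally expressed RNA reported to raise p53 activity, and *Gas5* hosts small nucleolar RNAs in its introns and accumulates in growth arrest. *Myc* encodes the growth-promoting transcription factor MYC, which p53 represses in many settings.

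In GRCm38 coordinates, *Myc* (ENSMUSG00000022346.15) lies on the plus strand of chromosome 15 from 61985391 to 61990374, and *Pvt1* (ENSMUSG00000097039.8) follows on the same strand from 62037986 to 62378096, 47.6 kb away. *Trp53cor1* (ENSMUSG00000085912.1) lies on the minus strand of chromosome 17 from 29057430 to 29079179, with *Cdkn1a* 11.8 kb beyond it. *Malat1* (ENSMUSG00000092341.2, 5795690 to 5802672) and *Neat1* (ENSMUSG00000092274.2, 5824708 to 5845478) are minus-strand neighbours on chromosome 19, 22.0 kb apart. *Meg3* (ENSMUSG00000021268.17) runs on the plus strand of chromosome 12 from 109541001 to 109571726, and *Rian* begins 32.2 kb beyond it and *Mirg* 68.0 kb beyond *Rian*. *Gas5* (ENSMUSG00000053332.13) lies on the plus strand of chromosome 1 from 161034422 to 161038539 and overlaps *Zbtb37*, which is transcribed from the opposite strand. Since the strand setting of the counting is not stated, reads of *Gas5* and *Zbtb37* might not be fully separated.

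Promoter windows of RefSeq (GRCm38.p6, 250 bases before to 50 after the start) exist in the table used here for 3 of the 7 genes, *Meg3*, *Malat1* and *Gas5*. The windows of *Meg3*, of *Rian* and *Mirg*, which follow it and moved with it, and of *Malat1* are shown because these genes were downregulated in dKO-E against cKO-E and had a window in the table. Each is written 5′ to 3′ on the gene's strand, and capitals mark every match, on either strand, of the TATA motif TATAAA, of the cyclic AMP response element TGACGTCA and its shorter form TGACG (which it contains), of the E-box CACGTG that MYC binds, or of the p53 half-site.
Meg3, chr12:109540746-109541045, plus strand: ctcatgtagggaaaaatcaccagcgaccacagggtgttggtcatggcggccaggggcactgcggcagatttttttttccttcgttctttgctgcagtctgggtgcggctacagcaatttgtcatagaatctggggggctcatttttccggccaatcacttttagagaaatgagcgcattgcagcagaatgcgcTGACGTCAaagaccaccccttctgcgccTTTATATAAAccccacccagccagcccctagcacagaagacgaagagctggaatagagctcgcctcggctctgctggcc
Rian, chr12:109603695-109603994, plus strand: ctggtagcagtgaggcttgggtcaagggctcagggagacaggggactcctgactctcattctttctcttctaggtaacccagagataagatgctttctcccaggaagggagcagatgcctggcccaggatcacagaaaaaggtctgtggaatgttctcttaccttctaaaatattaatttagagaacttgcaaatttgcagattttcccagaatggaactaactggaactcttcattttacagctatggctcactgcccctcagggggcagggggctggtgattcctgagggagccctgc
Mirg, chr12:109734731-109735030, plus strand: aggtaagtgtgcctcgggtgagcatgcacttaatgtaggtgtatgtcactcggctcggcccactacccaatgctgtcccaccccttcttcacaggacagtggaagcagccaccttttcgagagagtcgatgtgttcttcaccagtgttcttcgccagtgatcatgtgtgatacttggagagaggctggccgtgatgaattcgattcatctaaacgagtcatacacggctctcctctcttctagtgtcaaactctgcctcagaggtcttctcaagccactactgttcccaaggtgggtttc
Malat1, chr19:5802623-5802922, minus strand: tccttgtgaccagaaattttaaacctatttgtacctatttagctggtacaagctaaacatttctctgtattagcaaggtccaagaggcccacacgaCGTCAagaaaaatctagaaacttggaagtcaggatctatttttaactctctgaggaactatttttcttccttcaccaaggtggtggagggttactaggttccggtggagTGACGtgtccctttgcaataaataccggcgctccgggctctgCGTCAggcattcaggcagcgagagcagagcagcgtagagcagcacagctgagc
The *Meg3* window held TATAAA at 2 overlapping places, beginning 29 and 25 bases before the start, and TGACGTCA at 57 bases before it. TATAAA was present in 13.6% of the 32851 windows of the table and TGACGTCA in 1.79%. The *Malat1* window held TGACG, present in 20.8% of windows, at 3 places. The *Rian* and *Mirg* windows held none of the motifs searched. Neither CACGTG (7.15% of windows) nor the p53 half-site (8.36%) was found in the windows of the 3 members.

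Libraries held 820915 to 8095810 counts assigned to genes (median 2952788). Values are given as CPM, gene counts relative to library size after scaling by edgeR's TMM factors. The floor of detection was set at 3 counts, which stood for 0.368 to 3.71 CPM depending on depth, a limit that covers counting error only. Sequencing batch 1 held 4 ctrl, 3 cKO-E and 4 dKO-E embryos, batch 2 held 3, 2 and 2, and batch 3 held 1 dKO-E embryo. The ctrl embryos shared 3 litters with cKO-E and 1 with dKO-E. The cKO-E and dKO-E embryos shared no litter, so litter and genotype cannot be told apart in their comparison. The 7 dKO-E embryos came from 2 litters, and those of litter 2 were all male. Females and males numbered 4 and 3 in ctrl, 4 and 1 in cKO-E and 2 and 5 in dKO-E. Sex was thus also unevenly spread between cKO-E and dKO-E. For ctrl, cKO-E and dKO-E in turn (SD, n = 7, 5 and 7), *Ino80* read 121 ± 8.69, 166 ± 14.7 and 186 ± 13.7 CPM, and *Trp53* read 43.7 ± 5.18, 39.2 ± 4.66 and 34.6 ± 4.94 CPM. These sums over whole genes do not resolve the deleted exons and so do not check the genotypes. Of the cortex identity markers, 4 of 4 were detected, with a summed level of 467 to 581 CPM in ctrl, 308 to 426 in cKO-E and 409 to 628 in dKO-E.

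Per kilobase of annotated exons, *Malat1* was the most abundant of the 7 genes in ctrl at 763 ± 87.2 CPM per kb (SD, n = 7), followed by *Gas5* at 21.7 ± 1.78, *Pvt1* at 7.98 ± 2.04, *Meg3* at 5.00 ± 0.622, *Myc* at 1.83 ± 0.602, *Neat1* at 0.405 ± 0.0618 and *Trp53cor1* at 0.122 ± 0.109. No pair of neighbours in this order overlapped between ctrl embryos, nor between dKO-E embryos, whose order was the same. In cKO-E, *Pvt1* stood at 19.0 ± 2.08 CPM per kb (SD, n = 5) and overlapped *Gas5* at 19.6 ± 2.66, and *Trp53cor1* at 1.38 ± 0.375 passed *Neat1* at 0.599 ± 0.185 and overlapped *Myc* at 1.56 ± 0.377.

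**Figure D1:**
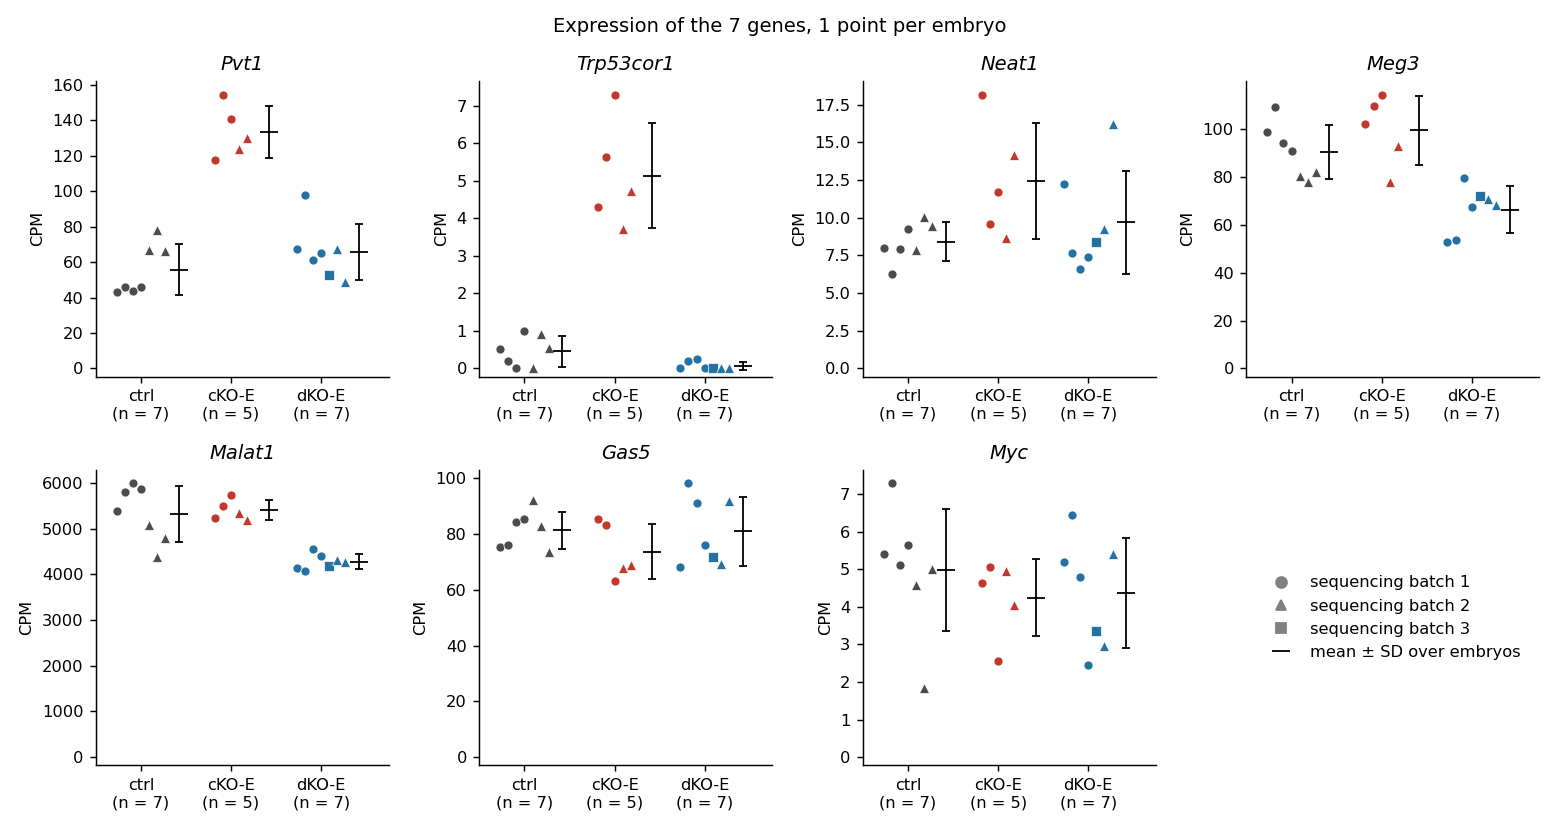
CPM of each gene on a linear axis for every embryo, with genotype on the horizontal axis, the marker shape giving the sequencing batch, and the mean with its SD beside each group. The 5 cKO-E embryos stand above all others for Pvt1 and Trp53cor1, and the 7 dKO-E embryos stand below the 5 cKO-E embryos for Malat1.

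*Pvt1* was the abundant p53-linked RNA that stood highest in cKO-E. The 7 ctrl embryos lay between 43.4 and 78.3 CPM with a median of 46.1. The 5 cKO-E embryos read 118, 154, 140, 124 and 130 CPM. The 7 dKO-E embryos lay between 48.6 and 98.0 CPM with a median of 64.9. The lowest cKO-E embryo exceeded the highest of both other genotypes, while ctrl and dKO-E overlapped. The log2 fold change was 1.32 (SE 0.13) for cKO-E against ctrl and -0.98 (SE 0.12) for dKO-E against cKO-E. Both comparisons had chosen the gene, so these are descriptions without a test.

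*Pvt1* also differed between sequencing batches within ctrl. The 4 ctrl embryos of batch 1 lay between 43.4 and 46.1 CPM and the 3 of batch 2 between 66.2 and 78.3 CPM. The 3 cKO-E embryos of batch 1 read 118, 154 and 140 CPM and the 2 of batch 2 read 124 and 130 CPM, so the batches overlapped in cKO-E. Over the 18 libraries of batches 1 and 2, a batch coefficient fitted beside genotype was 0.14 on the log2 scale (SE 0.13, adjusted p = 0.668, edgeR). It passed 0.05 for 0 of 11994 genes. This coefficient is shared by all genotypes, so it does not measure the difference within ctrl. The mean of *Pvt1* went from 44.8 CPM in batch 1 to 70.4 in batch 2 in ctrl. It went from 137 to 127 in cKO-E and from 72.9 to 57.9 in dKO-E. The log2 fold change of *Pvt1* in cKO-E against ctrl was 1.61 in batch 1 alone and 0.85 in batch 2 alone. In the litters that ctrl and cKO-E shared, the cKO-E embryo of litter 4 read 154 CPM beside 44.0 in its ctrl littermate, that of litter 5 read 140 beside 46.1 and 66.7, and that of litter 7 read 130 beside 78.3 and 66.2. The cKO-E embryo was thus highest in each of these litters.

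For *Pvt1*, dKO-E against ctrl gave a log2 fold change of 0.32 (SE 0.15, 95% confidence interval 0.00 to 0.63, Benjamini-Hochberg adjusted p = 0.165 by the quasi-likelihood test of edgeR, as in all that follow). The value was 0.69 in batch 1 alone (adjusted p = 0.00577, edgeR) and turned to -0.22 in batch 2 alone (adjusted p = 0.512, edgeR). With litter as a block it was 0.74 (adjusted p = 0.0298, edgeR), and in litter 1 alone, the single litter of both genotypes, 0.74 (adjusted p = 0.132, edgeR). Without ctrl embryo H it was 0.43 (adjusted p = 0.0414, edgeR) and without dKO-E embryo B 0.19 (adjusted p = 0.366, edgeR). Its size and its side of 0.05 thus depended on which embryos were compared. The difference of the effects between the batches, tested as an interaction chosen after the batches had been seen, was -0.92 on the log2 scale (adjusted p = 0.279, edgeR), and that for cKO-E against ctrl, given without a test, was -0.76.

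*Trp53cor1* was nearly silent outside cKO-E. Its counts in the 7 ctrl libraries were 2, 1, 0, 3, 0, 2 and 1, or 0.455 ± 0.407 CPM (SD, n = 7). In cKO-E they were 13, 20, 20, 3 and 14, or 5.13 ± 1.40 CPM (SD, n = 5), and the library with 3 counts was the shallowest of all. In dKO-E they were 0, 1, 2, 0, 0, 0 and 0, or 0.0639 ± 0.110 CPM (SD, n = 7). In CPM every cKO-E embryo was above every other embryo. The summed counts, 70 in cKO-E and 9 in ctrl, gave a ratio of 12.4 per unit of depth (95% counting interval 6.17 to 28.2), and the fitted log2 fold change was 3.49 (SE 0.41). Against the 3 counts of dKO-E the ratio was 43.7 (14.3 to 217). The gene was chosen on these differences, so no test is given.

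The dKO-E and ctrl libraries were both at or under 3 counts of *Trp53cor1*, so no fold is given. The counting interval of the ratio of their summed counts, 3 in dKO-E and 9 in ctrl, ran from 0.0494 to 1.14 and included 1, and the gene had too few counts for the fit of that comparison. An exact two-sided permutation test on log2(CPM + 0.5) gave p = 0.0414 for lower values in dKO-E (n = 7 and 7), with p = 0.0495 at a pseudocount of 0.1 and p = 0.0373 at a pseudocount of 1. These p-values share the same counts at or under the floor and ignore that the dKO-E embryos came from 2 litters. They do not settle whether the groups differ. The rest of the *Trp53cor1* locus moved in part with it. *Cdkn1a*, the cyclin-dependent kinase inhibitor on its upstream side, lay between 0 and 1.67 CPM in ctrl, between 8.44 and 11.7 in cKO-E and between 0 and 1.35 in dKO-E. *Cdkn1a*, itself a p53 target, was the single gene called among 12 tested within 500 kb of *Trp53cor1* in cKO-E against ctrl (log2 fold change 3.63, SE 0.36). Of all genes tested, 1.06% were called upregulated. *Cdkn1a* had enough counts to be tested only where cKO-E, in which it was high, took part, so its values are a description.

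Markers of microglia, cells that the Cre does not reach, were higher in the same cKO-E libraries in which *Pvt1* and *Trp53cor1* were high. The summed level of the 17 microglial markers was 10.3 to 22.8 CPM in ctrl, 45.2 to 57.7 in cKO-E and 12.5 to 15.1 in dKO-E, and 2 of the 17 were at 0 in all ctrl libraries and 1 in all cKO-E and all dKO-E libraries. Among the 4 tested, *Mpeg1*, *Csf1r* and *Dock2* were called upregulated in cKO-E against ctrl, beside 1.06% of all genes tested. None of these 3 had enough counts to be tested in dKO-E against ctrl, where 1 of the 17 was tested. They passed the count filter through the cKO-E libraries, in which they were high, so the count is a description. The 5 Cajal-Retzius markers, of which *Reln* and *Trp73* were called upregulated, summed to 511 to 695 CPM in ctrl, 821 to 929 in cKO-E and 445 to 626 in dKO-E. The cortex identity markers given above were lower in cKO-E than in ctrl without overlap, with *Lhx2* called downregulated (log2 fold change -0.66, SE 0.09, adjusted p = 7.51e-05, edgeR). The 11 apical progenitor markers summed to 1457 to 1666 CPM in ctrl, 1150 to 1507 in cKO-E and 1292 to 1616 in dKO-E, with 2 at 0 in all libraries of each group, and of 9 tested *Id4* was called downregulated and *Fabp7* upregulated in cKO-E. The part of these cell types in the *Pvt1* and *Trp53cor1* values was not tested.

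*Neat1*, the paraspeckle scaffold, had a smaller difference in the same direction. The 7 ctrl embryos lay between 6.27 and 10.1 CPM with a median of 8.0. The cKO-E embryos read 18.2, 9.58, 11.7, 8.65 and 14.2 CPM. The dKO-E embryos lay between 6.63 and 16.2 CPM with a median of 8.36, and 7 to 55 counts stood behind each value of any embryo. The groups overlapped in all comparisons. The log2 fold change for cKO-E against ctrl was 0.64 (SE 0.19, adjusted p = 0.0265, edgeR), past a false discovery rate of 0.05 but not the 0.001 used for calls against ctrl, and with litter as a block it was 0.42 (adjusted p = 0.176, edgeR). The pass at 0.05 was lost in batch 1 alone (0.74, adjusted p = 0.0521, edgeR), in batch 2 alone (0.44, adjusted p = 0.516, edgeR) and without cKO-E embryo A at 18.2 CPM (0.45, adjusted p = 0.121, edgeR) or E at 14.2 CPM (0.60, adjusted p = 0.0594, edgeR). For dKO-E against cKO-E it was -0.57 (SE 0.22, adjusted p = 0.0904, edgeR), and without the dKO-E embryo at 16.2 CPM, the highest of its group, it was -0.66 (adjusted p = 0.0412, edgeR), while without cKO-E embryo A it was -0.39 (adjusted p = 0.313, edgeR). For dKO-E against ctrl it was 0.08 (SE 0.19, 95% confidence interval -0.32 to 0.48, adjusted p = 0.832, edgeR).

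Of 19 genes for paraspeckle proteins, the partners of *Neat1*, 17 were tested. *Pspc1*, which encodes one of the core paraspeckle proteins, fell from 249 CPM on average in ctrl to 172 in cKO-E (log2 fold change -0.53, SE 0.06, adjusted p = 2.83e-05, edgeR) and to 183 in dKO-E (log2 fold change -0.46, SE 0.05, adjusted p = 7.91e-06, edgeR). It was the single member of that list called against ctrl. Against ctrl the list's median log2 fold change was -0.11 for cKO-E and 0.00 for dKO-E, beside 0.02 and 0.01 over all genes tested. In dKO-E against cKO-E none of the 17 was called, with 2 at an unadjusted p under 0.05 and none called by the likelihood ratio test.

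*Meg3* was lower in dKO-E than in either other genotype. The ctrl embryos lay between 77.8 and 109 CPM with a median of 90.9. The cKO-E embryos read 102, 110, 114, 77.8 and 92.9 CPM. The dKO-E embryos lay between 52.8 and 79.3 CPM with a median of 68.1. Only the highest dKO-E embryo reached the range of the others, which 1 cKO-E embryo and 1 ctrl embryo, both near 77.8 CPM, set at its lower end. *Meg3* fell in dKO-E against cKO-E by 0.61 on the log2 scale (SE 0.11, adjusted p = 0.000541, edgeR). Against ctrl the log2 fold change was -0.47 (SE 0.10, adjusted p = 0.00258, edgeR), past 0.05 and not past 0.001. In cKO-E against ctrl it was 0.15 (SE 0.09, 95% confidence interval -0.05 to 0.34, adjusted p = 0.324, edgeR), and with litter as a block 0.28 (adjusted p = 0.0312, edgeR).

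Littermates bear on the *Meg3* difference, since 5 embryos came from litter 1. Its 2 ctrl embryos read 98.9 and 109 CPM of *Meg3*, and its 3 dKO-E embryos 52.8, 53.4 and 79.3 CPM. With litter as a block the log2 fold change of dKO-E against ctrl was -0.72 (adjusted p = 0.00689, edgeR). That block compares these genotypes within litter 1 only, and in litter 1 alone the value was -0.74 (adjusted p = 0.115, edgeR). Within batches it was -0.62 in batch 1 (adjusted p = 0.00544, edgeR) and -0.20 in batch 2 (adjusted p = 0.448, edgeR), where 3 ctrl and 2 dKO-E libraries were compared. For dKO-E against cKO-E it was -0.75 in batch 1 (adjusted p = 0.00476, edgeR) and -0.34 in batch 2 (adjusted p = 0.356, edgeR).

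*Rian* and *Mirg*, the noncoding genes that follow *Meg3* in the imprinted *Dlk1*-*Dio3* domain and carry small nucleolar RNAs and microRNAs, were lower in the same embryos. *Rian* lay between 92.2 and 121 CPM in ctrl, read 101, 112, 129, 70.4 and 99.6 in cKO-E and lay between 50.8 and 79.4 in dKO-E, so that no dKO-E embryo reached any ctrl embryo. It fell by 0.76 on the log2 scale in dKO-E against ctrl (SE 0.09, adjusted p = 7.91e-06, edgeR) and by 0.71 against cKO-E (SE 0.11, adjusted p = 0.000261, edgeR). In batch 2 alone the values were -0.69 (adjusted p = 0.0131, edgeR) and -0.59 (adjusted p = 0.0811, edgeR), and with litter as a block that against ctrl was -0.79 (adjusted p = 0.00330, edgeR), so that these calls were lost there. In litter 1 alone *Rian* gave -0.80 against ctrl (adjusted p = 0.0642, edgeR). *Mirg* averaged 11.7 ± 2.67 CPM in the 7 ctrl, 10.9 ± 2.73 in the 5 cKO-E and 5.45 ± 2.38 (SD) in the 7 dKO-E embryos. *Mirg* fell by 0.84 against cKO-E (SE 0.24, adjusted p = 0.0203, edgeR), a call lost in batch 1 alone (adjusted p = 0.0776, edgeR), in batch 2 alone (0.238), with the dKO-E embryos of litter 1 alone (0.119) and without cKO-E embryo A (0.0575) or B (0.0863). Of the promoter windows of these 3 genes, cut at annotated starts, that of *Meg3* held motifs searched and the others held none.

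Within 500 kb of *Meg3*, 4 other genes were tested, and 3 were called downregulated in dKO-E against cKO-E, beside 9.42% of all genes tested. They were *Rian*, *Mirg* and the unclassified transcript *Gm37899*, which lies 97.1 kb from *Meg3* (log2 fold change -0.97, SE 0.29, adjusted p = 0.0273, edgeR). In ctrl, *Pvt1*, *Meg3* and *Rian* each read differently in the 2 sequencing batches without overlap, so no correlation between neighbours over the ctrl embryos is given. Across the 7 dKO-E embryos, log2 levels of *Meg3* and *Rian* gave Pearson's r = 0.56 (exact permutation p = 0.182, adjusted p = 0.242 over the 8 relations computed) and Spearman's rho = 0.57 (exact permutation p = 0.200, adjusted p = 0.314), with r = 0.77 without the 2 embryos farthest in *Meg3*. Those of *Pvt1* and *Myc* gave r = 0.30 (exact permutation p = 0.535, adjusted p = 0.535) and rho = 0.18 (exact permutation p = 0.713, adjusted p = 0.713), with r = 0.048 without the 2 embryos farthest in *Pvt1*.

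**Figure D2:**
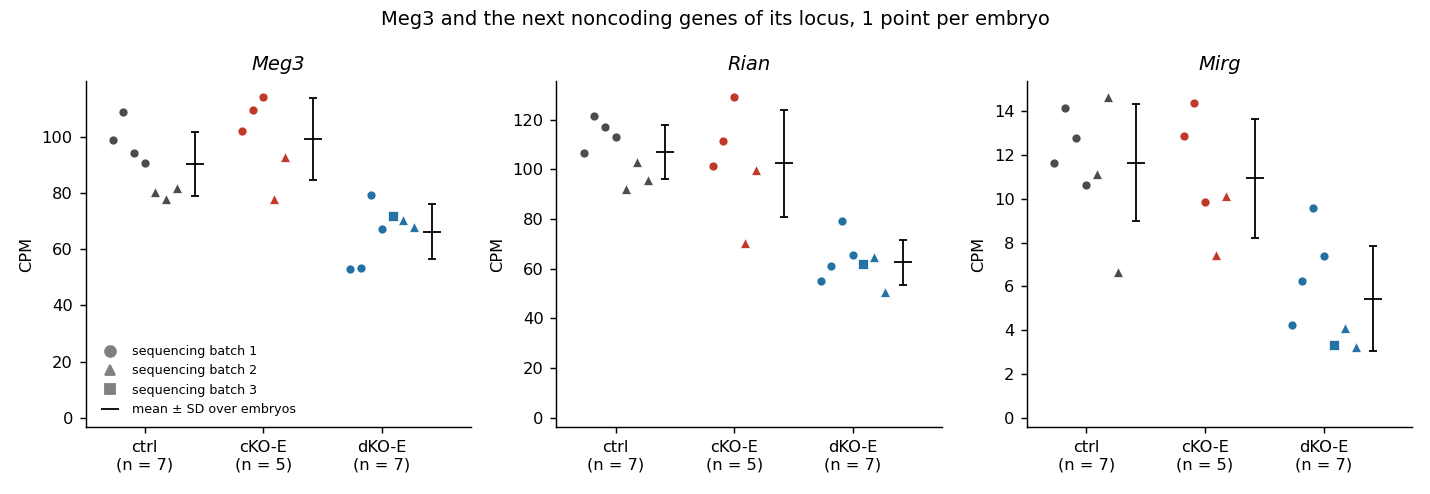
CPM of Meg3, Rian and Mirg on linear axes for every embryo by genotype, with the marker shape giving the sequencing batch and the mean with its SD beside each group. The dKO-E mean is the lowest in each panel, and for Rian their range of 50.8 to 79.4 CPM does not reach the ctrl range of 92.2 to 121.

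*Malat1* showed the same order as *Meg3* with little spread in dKO-E. The ctrl embryos lay between 4374 and 5990 CPM with a median of 5376. The cKO-E embryos read 5233, 5502, 5743, 5338 and 5200 CPM. The dKO-E embryos lay between 4075 and 4566 CPM with a median of 4272. All dKO-E embryos were below all cKO-E embryos, and 1 ctrl embryo lay within the dKO-E range. *Malat1* fell in dKO-E against cKO-E by 0.34 on the log2 scale (SE 0.05, adjusted p = 0.000258, edgeR). Against ctrl the log2 fold change was -0.33 (SE 0.07, adjusted p = 0.00206, edgeR), again past 0.05 and not past 0.001, and in cKO-E against ctrl it was 0.02 (SE 0.07, 95% confidence interval -0.13 to 0.17, adjusted p = 0.897, edgeR).

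*Malat1* in ctrl differed by batch, from 5376 to 5990 CPM in batch 1 and from 4374 to 5071 in batch 2. The batch coefficient beside genotype over 18 libraries, shared by all genotypes, was -0.13 (SE 0.05, adjusted p = 0.208, edgeR). In dKO-E against ctrl the log2 fold change was -0.44 in batch 1 alone (adjusted p = 0.00177, edgeR) and -0.15 in batch 2 alone (adjusted p = 0.260, edgeR). In dKO-E against cKO-E it was -0.35 (adjusted p = 0.0347, edgeR) and -0.30 (adjusted p = 0.0368, edgeR). In litter 1 the ctrl embryos read 5376 and 5812 CPM and the dKO-E embryos 4149, 4075 and 4566 CPM. With litter as a block the log2 fold change against ctrl was -0.40 (adjusted p = 0.0112, edgeR), and in litter 1 alone it was -0.41 (adjusted p = 0.143, edgeR).

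Neuron markers moved with *Malat1* and *Meg3*. Of 12 such markers, 11 were tested, and 6 were called downregulated in dKO-E against cKO-E, beside 9.42% of all genes tested. Among them were *Map2* (log2 fold change -0.44, SE 0.07, adjusted p = 0.000168, edgeR) and *Mapt* (log2 fold change -0.92, SE 0.12, adjusted p = 2.01e-05, edgeR), which encode microtubule-associated proteins of neurites. The list's median log2 fold change was -0.44, beside 0.02 over all genes tested. Against ctrl, *Map2* was the single neuron marker called in dKO-E (log2 fold change -0.38, SE 0.07, adjusted p = 0.000696, edgeR), and 11 of the 11 had fold changes below 0 with a median of -0.29. The summed level of the 12 markers was 4438 to 7401 CPM in ctrl, 5293 to 6992 in cKO-E and 3687 to 5357 in dKO-E, with 1 marker at 0 in every library of each group. In ctrl it was 6252 to 7401 in batch 1 and 4438 to 5193 in batch 2, the same order as for *Malat1*. Of 8 interneuron markers, 4 were tested in dKO-E against cKO-E and all 4 were called downregulated, beside the same 9.42%. In dKO-E against ctrl only 3 had enough counts to be tested, so this count is a description. The 8 markers summed to 9.15 to 87.6 CPM in ctrl, 68.6 to 124 in cKO-E and 30.9 to 71.3 in dKO-E. The part of either cell type in the *Malat1* and *Meg3* values was not tested.

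**Figure D3:**
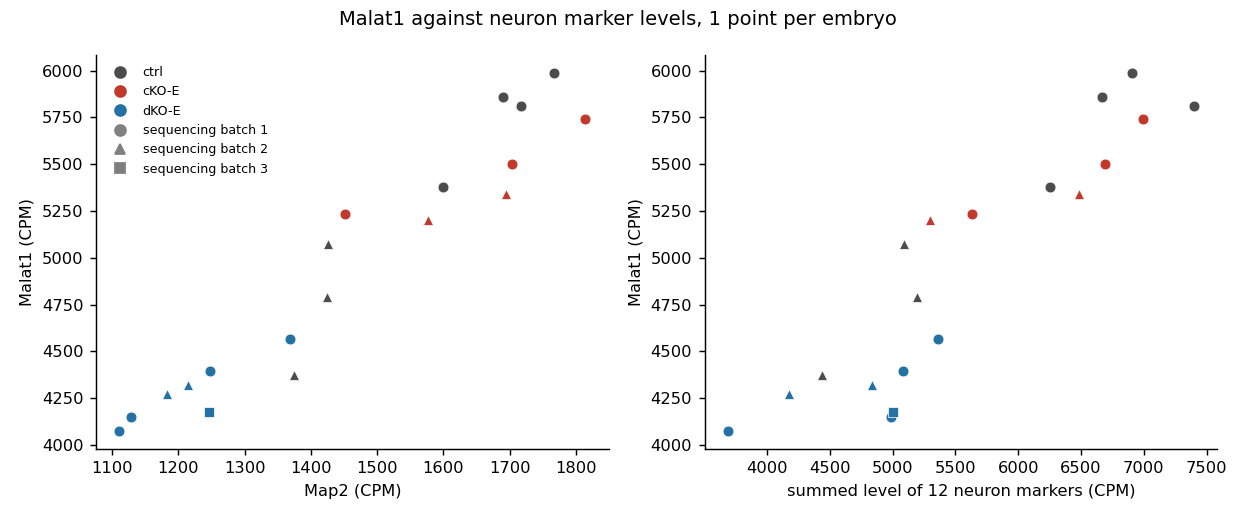
Malat1 CPM on the vertical axis against Map2 CPM on the left and the summed CPM of 12 neuron markers on the right, 1 point per embryo, coloured by genotype and shaped by sequencing batch, with axes that do not start at 0. On the Map2 axis the dKO-E embryos, between 1111 and 1369 CPM, lie lowest. The 3 ctrl embryos of batch 2, between 1374 and 1425 CPM of Map2, lie between them and the other ctrl embryos. On the Malat1 axis the dKO-E embryos lie between 4075 and 4566 CPM, and ctrl embryo H of batch 2, at 4374 CPM, lies within that range. On the right, the ctrl embryos of batch 2, from 4438 to 5193 CPM, lie within the dKO-E range of 3687 to 5357 CPM.

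The genes whose log2 levels ran most like each member over the 19 embryos, among 8349 with at least 10 counts in every library, were in part neuronal. For *Malat1* they were *Map2* (Pearson's r = 0.96), *Magi2* (0.95) and *Fam155a* (0.94). For *Meg3* they were *Apc* (0.93), *Sobp* (0.93) and *Sntg1* (0.92). For *Pvt1* they were *Mgmt* (0.91), a DNA repair methyltransferase, *Galntl6* (0.87) and *Cntn5* (0.86), and for *Gas5* they were *Cops4* (0.80), *Hist2h4* (0.73) and *Rps27* (0.73). All points share the genotypes and batches, and the values are descriptions.

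*Gas5* did not separate the genotypes. The ctrl embryos lay between 73.5 and 92.2 CPM with a median of 82.8. The cKO-E embryos read 85.5, 83.4, 63.1, 68.0 and 68.9 CPM. The dKO-E embryos lay between 68.4 and 98.2 CPM with a median of 76.1, and all groups overlapped. The log2 fold changes were -0.12 in cKO-E against ctrl (SE 0.09, 95% confidence interval -0.30 to 0.06, adjusted p = 0.390, edgeR), 0.00 in dKO-E against ctrl (SE 0.08, -0.17 to 0.17, adjusted p = 1.00, edgeR) and 0.13 in dKO-E against cKO-E (SE 0.11, -0.10 to 0.36, adjusted p = 0.483, edgeR). Of 17 other hosts of small nucleolar RNAs that matched, 12 were tested in dKO-E against cKO-E, and the called ones were *Snhg14*, the large neuronal transcript of the imprinted *Snrpn* region (log2 fold change -0.91, SE 0.14, adjusted p = 0.000212, edgeR), and *Snhg11* (log2 fold change -1.27, SE 0.24, adjusted p = 0.00139, edgeR), both downregulated. Against ctrl 11 were tested and edgeR called none, with 2 at an unadjusted p under 0.05 for cKO-E and 1 for dKO-E, and 1 and 0 called by its likelihood ratio test. The median of the 12 tested in dKO-E against cKO-E was 0.06, beside 0.02 over all genes tested, of which 9.42% were downregulated.

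*Myc* was a low-count gene without a difference past the tests. Its counts were 4 to 36 in ctrl, 4 to 18 in cKO-E and 4 to 39 in dKO-E. In CPM the ctrl embryos lay between 1.83 and 7.29 with a median of 5.11, the cKO-E embryos read 4.62, 5.07, 2.55, 4.94 and 4.05, and the dKO-E embryos lay between 2.46 and 6.45 with a median of 4.79, so all groups overlapped. The log2 fold change was -0.31 in cKO-E against ctrl (SE 0.27, 95% confidence interval -0.88 to 0.26, adjusted p = 0.495, edgeR) while that of *Pvt1*, its neighbour, was 1.32. In dKO-E it was -0.25 against ctrl (SE 0.25, -0.78 to 0.28, adjusted p = 0.557, edgeR) and 0.08 against cKO-E (SE 0.28, -0.51 to 0.66, adjusted p = 0.908, edgeR). At these counts a difference smaller than these intervals was not detectable. No gene within 500 kb of *Myc* or *Pvt1* other than the pair itself had enough counts to be tested.

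Genes around MYC gave few calls. Of 13 genes of the MYC and MAX network, 12 were tested and edgeR called none in any comparison, with 4, 2 and 2 at an unadjusted p under 0.05 in cKO-E against ctrl, dKO-E against ctrl and dKO-E against cKO-E. edgeR's likelihood ratio test also called none. *Mxi1*, a MAX partner that opposes MYC, had the smallest p against ctrl, with log2 fold changes of -0.27 for cKO-E (SE 0.08, adjusted p = 0.0201, edgeR) and of -0.24 for dKO-E (SE 0.07, adjusted p = 0.0212, edgeR). Of 56 growth genes that MYC is known to activate, 55 were tested, and against ctrl edgeR called none, with 10 in cKO-E and 20 in dKO-E at an unadjusted p under 0.05, and 2 and 1 called by edgeR's likelihood ratio test. When dKO-E was set against cKO-E, 6 of the 55 were upregulated, beside 5.59% of all genes tested, among them *Shmt2* (log2 fold change 0.65, SE 0.14, adjusted p = 0.00352, edgeR), *Bop1* (log2 fold change 0.38, SE 0.11, adjusted p = 0.0285, edgeR) and *Paics* (log2 fold change 0.26, SE 0.08, adjusted p = 0.0327, edgeR), and *Ccnd1* was downregulated (log2 fold change -0.46, SE 0.14, adjusted p = 0.0360, edgeR). The list's median in that comparison was 0.14, beside 0.02, with 46 genes above 0 and 9 below. The counts of calls are not comparable, since the threshold against ctrl was stricter than the 0.05 used there. At 0.05, in either direction, 8 of the 55 passed in dKO-E against ctrl, beside 15.5% of all genes tested. In cKO-E against ctrl 5 of the 55 passed, beside 17.2%. For dKO-E against ctrl the median was 0.14, beside 0.01, with 47 genes above 0 and 8 below. For cKO-E against ctrl it was 0.07, beside 0.02, with 35 above 0 and 20 below.

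**Figure D4:**
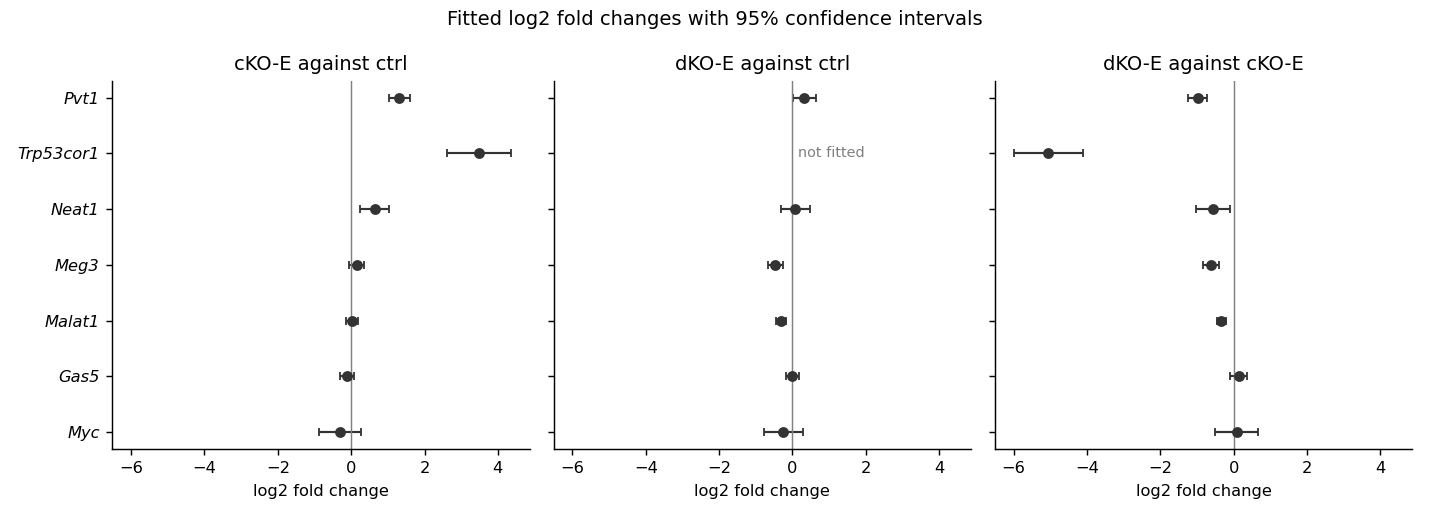
Fitted log2 fold changes of the 7 genes on the horizontal axis with 95% confidence intervals, in a panel for each comparison. Pvt1 at 1.32 and Trp53cor1 at 3.49 lie farthest to the right in cKO-E against ctrl, Pvt1, Trp53cor1, Meg3 and Malat1 lie left of 0 in dKO-E against cKO-E, and Trp53cor1 could not be fitted in dKO-E against ctrl.

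Over the 7 genes, 2 were called upregulated in cKO-E against ctrl, *Pvt1* and *Trp53cor1*, where at a false discovery rate of 0.001 the shares of the 11660 genes tested were 1.06% for upregulated and 2.32% for downregulated genes. The same 2 had groups that did not overlap, as had 8.77% of all genes tested. At 0.05, *Neat1* was added, beside 7.31% of genes upregulated. In dKO-E against ctrl, 6 were tested and edgeR called none, with 3 at an unadjusted p under 0.05 and 2, *Meg3* and *Malat1*, called by its likelihood ratio test and by DESeq2. There 0.246% of 11381 genes were upregulated, 2.34% downregulated and 4.45% had groups that did not overlap, and at 0.05 *Meg3* and *Malat1* passed beside 15.5% of genes in either direction. In dKO-E against cKO-E, *Pvt1*, *Trp53cor1*, *Meg3* and *Malat1* were downregulated at 0.05, beside 9.42% of 11746 genes, and 3 of these, all but *Meg3*, had groups that did not overlap, beside 7.09%. The list was drawn up with results of these counts known, so its counts are no independent support for a direction. Each pair of comparisons shares the embryos of 1 genotype.

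The mRNAs of p53 targets are given for the same embryos, in which *Trp53cor1* was high in cKO-E and near 0 elsewhere. Of 18, 16 were tested in cKO-E against ctrl and 10 were called upregulated, beside 1.06% of all genes tested. They included *Eda2r*, a death receptor (log2 fold change 3.89, SE 0.22), *Aen*, a nuclease of apoptosis (1.21, SE 0.07), and *Ccng1* (2.03, SE 0.14). *Eda2r* averaged 1.95 CPM in ctrl and 26.3 in cKO-E. The list was drawn up with results of these counts known, so these values are descriptions without a test. In dKO-E against ctrl only 9 had enough counts to be tested and edgeR called none, with 3 at an unadjusted p under 0.05 and none called by its likelihood ratio test. Against cKO-E, 12 of 16 were downregulated, beside 9.42% of all genes tested. More of the list was tested where the cKO-E libraries took part, in which its genes were high, so the counts are over different genes and are given as a description.

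Of 22 other noncoding genes with known roles, 21 matched a symbol and 18 were tested. *Ftx*, a noncoding gene of the X-inactivation centre, was downregulated in cKO-E against ctrl (log2 fold change -0.53, SE 0.10, adjusted p = 0.000969, edgeR), a call lost with total counts or upper quartile factors as the scaling. In dKO-E against ctrl the calls were *Rian* and *Kcnq1ot1*, the imprinted antisense transcript of *Kcnq1* (log2 fold change -0.44, SE 0.07, adjusted p = 0.000490, edgeR). In dKO-E against cKO-E they were *Rian*, *Mirg*, *Dlx6os1* of interneurons (log2 fold change -1.06, SE 0.22, adjusted p = 0.00220, edgeR) and the microRNA host *Mir124a-1hg* (log2 fold change -0.54, SE 0.12, adjusted p = 0.00569, edgeR), all downregulated. The medians of the list were -0.02, -0.12 and -0.11 in the 3 comparisons, beside 0.02, 0.01 and 0.02 over all genes tested. Of all genes tested, 2.32%, 2.34% and 9.42% were downregulated in these comparisons.

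Within 500 kb, 44 genes were tested near *Neat1* and 42 near *Malat1* in cKO-E against ctrl. The single one called was *Ltbp3*, downregulated beside 2.32% of all genes tested. This gene encodes a binding protein of latent TGF-beta and lies 37.2 kb from *Malat1*. It averaged 32.2 CPM in ctrl, 15.9 in cKO-E and 37.7 in dKO-E, which gave -1.03 on the log2 scale for cKO-E against ctrl (SE 0.10, adjusted p = 2.08e-06, edgeR) and 1.23 for dKO-E against cKO-E (SE 0.16, adjusted p = 2.33e-05, edgeR). In the same comparisons *Neat1* gave 0.64 and -0.57, and *Malat1* gave 0.02 and -0.34. *Frmd8*, a coding gene 4.22 kb from *Neat1*, was not called in any comparison. In dKO-E against cKO-E 43 genes were tested within 500 kb of *Neat1*. Besides *Ltbp3*, *Pola2*, *Cdca5* and *Map4k2* were called upregulated there, beside 5.59% of all genes tested. Near *Gas5*, 9 genes were tested in dKO-E against cKO-E. *Cenpl* and *Prdx6* were upregulated and *Rabgap1l* downregulated, beside 5.59% and 9.42% of all genes tested. *Zbtb37*, which overlaps *Gas5*, gave -0.03 (SE 0.06, adjusted p = 0.802, edgeR).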

How the data were processed

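Per the labels and the study's methods, the authors depleted ribosomal RNA, made Click-seq libraries, trimmed reads with cutadapt 1.13, aligned them with STAR 2.5.2a to mm10, collapsed duplicates sharing a molecular identifier (UMI-tools 0.5.3) and ran htseq-count of HTSeq 0.6.1p1. They deposited whole-number counts per gene, not normalized. A strand setting is not given in the sources used here. Rows that name no gene held 23.3 to 31.8% of all counts and were left out. Symbols and positions came from GENCODE M21 (GRCm38), which held 51719 of 51912 identifiers. There were 0 pairs of identical libraries.

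Counts were tested with edgeR 4.0.16 in R 4.3.3 (filterByExpr at 10 counts, TMM factors, quasi-likelihood test, Benjamini-Hochberg adjustment over all genes tested), each pair of genotypes in its own fit without covariates. The fits were also run on simulated counts with known changes. These held no batch or litter effects, so they do not check the lack of covariates. A gene was called at a false discovery rate of 0.001 against ctrl and 0.05 for dKO-E against cKO-E. The standard error is the log2 fold change divided by the square root of F. DESeq2 1.42.0 was an alternative. Every embryo counts as 1 replicate. The members and lists were chosen with earlier results of these data known. Genes named besides the members were the called genes of each list of smallest p (at most 4), or the first where none was called, the called and nearest neighbours, and the 3 genes most like each member with at least 10 counts in every library. *Zbtb37* was named for its overlap with *Gas5*. Not every gene that this rule names is reported here. Fits with batch as an interaction or coefficient, of litter 1 alone and with the dKO-E embryos of 1 litter were added after seeing the data.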

Additional observations from a re-analysis of the deposited data

Results flagged for a closer look

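Of 21 combinations of gene and genotype, 1 held an embryo that lay far from the rest of its group by Dixon's criterion. *Pvt1* read 98.0 CPM in dKO-E embryo B, while the other 6 dKO-E embryos lay between 48.6 and 67.5 CPM. Its gap to the nearest embryo was 0.619 of the group's range. About 1 in 20 such groups would be flagged by chance. The embryo was female and of litter 1 and batch 1, and without it the log2 fold change of *Pvt1* in dKO-E against ctrl was 0.19.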

How the results depend on the processing

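Of the members' log2 fold changes under other settings, 529 kept their direction and side of the threshold, 11 newly passed it, 2 no longer passed it and 23 changed sign. The number of members called in cKO-E against ctrl was 2 and became 1 with at least 10 counts required in every library (4 members tested) and 0 in batch 2 alone, where *Pvt1* gave 0.85. In dKO-E against ctrl it was 0 and became 2 by the likelihood ratio test, DESeq2 or a false discovery rate of 0.05 (*Meg3*, *Malat1*), and 1 with sex as a covariate (*Meg3*) or in 1 fit over all libraries (*Malat1*). In dKO-E against cKO-E it was 4 and became 2 in batch 2 alone (*Pvt1*, *Malat1*, with 5 members tested, not *Trp53cor1*). It became 3 with at least 10 counts in every library (4 members tested, not *Trp53cor1*). With sex as a covariate it stayed 4 there. Without 1 embryo the counts ranged from 2 to 2, from 0 to 1 (1 without ctrl H, *Malat1*) and from 4 to 5 (5 without dKO-E G, adding *Neat1*).

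The letters of the labels are shared between genotypes, but embryos of one letter did not deviate together (correlations from -0.41 to 0.17), so they do not pair the samples. With the letter as a replicate block the counts of members called were 2, 0 and 4. No fit with litter as a block could be made for dKO-E against cKO-E.

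Some values changed sign. In cKO-E against ctrl, *Malat1* gave -0.080 with the replicate block and -0.081 in batch 1 alone, and *Rian* 0.089 with litter as a block. Without 1 embryo *Malat1* ranged from -0.021 to 0.052, *Rian* from -0.12 to 0.025 and *Mirg* from -0.17 to 0.012. In dKO-E against ctrl, *Gas5* gave -0.000528 by the likelihood ratio test, -0.035 with the replicate block, -0.098 in batch 2 alone and -0.092 with the dKO-E embryos of litter 2 alone, *Pvt1* -0.22 in batch 2 alone, and with the dKO-E embryos of litter 1 alone *Neat1* gave -0.0063 and *Myc* 0.062. Without 1 embryo *Gas5* ranged from -0.049 to 0.046 and *Neat1* from -0.0026 to 0.18. In dKO-E against cKO-E, *Myc* gave -0.44 with the dKO-E embryos of litter 2 alone and from -0.092 to 0.21 without 1 embryo. The cause of these changes was not tested. Scaling by total counts moved the median of all genes in dKO-E against ctrl from 0.01 to 0.10, where *Meg3* gave -0.38 and *Malat1* -0.23. The same scaling raised the calls in dKO-E against cKO-E from 7 to 11 among MYC growth targets and from 0 to 2 among paraspeckle proteins, and left 1 of 2 other noncoding genes called in dKO-E against ctrl and 0 of 1 in cKO-E against ctrl, as did upper quartile factors in the latter. The likelihood ratio test called 2 other noncoding genes and 2 paraspeckle proteins in cKO-E against ctrl (1 and 1 in the main analysis), and 4 other noncoding genes and 2 of the *Dlk1*-*Dio3* domain in dKO-E against ctrl (2 and 1). Widening the neighbourhood to 1 Mb raised the neighbours called in dKO-E against cKO-E from 1 of 12 tested to 3 of 24 for *Trp53cor1*. For *Neat1* they rose from 4 of 43 to 7 of 63. For *Malat1*, whose neighbourhood overlaps that of *Neat1*, they rose from 3 of 41 to 7 of 64. Of all genes tested, 15% were called in either direction in that comparison. Depth limits *Trp53cor1*, *Myc* and *Neat1*.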
